A study of Mus musculus with 10 samples.

Results

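Osteoglycin (OGN) and 9 related small leucine-rich proteoglycans, DCN, BGN, ASPN, ECM2, LUM, FMOD, PRELP, OMD and PODN, were followed through 10 mouse tumor libraries. OGN was chosen by its higher measured level in NLS-2SA-YAP1 tumors, and the other 9 genes were added as members of its protein family. All 10 genes were found among the 16895 gene symbols listed in each library. The values that chose OGN, its levels under the 2 constructs, are therefore given as a description without a test.

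Small leucine-rich proteoglycans are secreted proteins built around leucine-rich repeats, many of which carry chondroitin, dermatan or keratan sulfate chains. They bind collagen and set the width and spacing of its fibrils, and several hold growth factors such as TGF-beta or signal through receptors on the cell surface. In the meninges they are made mostly by fibroblast-like cells of the dura, arachnoid and pia. Decorin (DCN), biglycan (BGN) and asporin (ASPN) form class I, to which ECM2 is related. Lumican (LUM), fibromodulin (FMOD), PRELP and osteoadherin (OMD) form class II, osteoglycin belongs to class III and podocan (PODN) to class V.

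The tumors arose after chicken DF1 fibroblasts, which release the avian RCAS retrovirus, had been placed beneath the arachnoid of newborn mice. The virus carried YAP1-MAML2-v2, a fusion of the coactivator YAP1 with MAML2 (7 libraries), or NLS-2SA-YAP1, an active form of YAP1 (3 libraries). All mice, in both groups, were Cdkn2a null and carried the viral receptor tv-a under the Nestin promoter, so that infection was limited to cells in which that promoter had been active. The sources used here do not give the age at which tumors were taken. Of the YAP1-MAML2-v2 tumors, replicates 1, 3, 4 and 5 were extra cranial, replicates 2 and 6 extra axial and replicate 7 intra ventricular. Of the NLS-2SA-YAP1 tumors, replicates 2 and 3 were extra cranial and replicate 1 extra axial. The labels do not say that the tumors of a group came from separate animals, so p-values measure the spread between these samples only. They tag each sample with DF1 as its cell type, although the protocols describe frozen mouse tumors and mm10 as the genome. No normal meninges were analysed here.

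Deposited values summed to between 28001143 and 44544314 per library, and 4.54 to 6.82 times as many genes held the value 1 as held 2. The values were therefore treated as estimated counts of unknown depth. YAP1 stood at 421 to 592 CPM (counts scaled to a common library size by TMM) across the 3 NLS-2SA-YAP1 libraries, against 122 to 174 CPM for the 7 YAP1-MAML2-v2 libraries. FOXC1, a transcription factor of meningeal mesenchyme, was at 175 to 1024 CPM and was on average the highest of 9 meningeal fibroblast markers. In YAP1-MAML2-v2 replicates 2, 4 and 7, 1 of the 9 markers was at 0 or 1. Skeletal muscle markers (8 of 8 in the files) summed to 52.4 CPM in replicate 3 of YAP1-MAML2-v2 and to 72 and 250 CPM in replicates 2 and 3 of NLS-2SA-YAP1. Nowhere else did their sum exceed 2.3 CPM. The deposited names of YAP1-MAML2-v2 replicates 6 and 7 carry the same number, and whether they came from 1 mouse is not given. In whole tumors, fewer cells of a type and less RNA per cell cannot be told apart.

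Ecm2, Aspn, Omd and Ogn lie next to each other on the plus strand of mouse chromosome 13, from 49504810 to 49624501 (mm10), a span of 119.7 kb. The stretches of 250 bases that precede the RefSeq start of these 4 neighbours (GRCm38.p6, plus strand, 5′ to 3′) are shown because the genes share a locus while no correlation of OGN with the other 3 passed its test. Capitals mark a match to the letters GGAATG, the core of the element bound by TEAD factors, through which YAP1 reaches DNA.
Ecm2, chr13:49504560-49504809: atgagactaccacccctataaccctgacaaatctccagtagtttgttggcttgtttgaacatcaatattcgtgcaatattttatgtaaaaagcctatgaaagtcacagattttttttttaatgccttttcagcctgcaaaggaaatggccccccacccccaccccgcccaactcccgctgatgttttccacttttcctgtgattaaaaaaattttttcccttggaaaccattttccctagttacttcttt
Aspn, chr13:49544193-49544442: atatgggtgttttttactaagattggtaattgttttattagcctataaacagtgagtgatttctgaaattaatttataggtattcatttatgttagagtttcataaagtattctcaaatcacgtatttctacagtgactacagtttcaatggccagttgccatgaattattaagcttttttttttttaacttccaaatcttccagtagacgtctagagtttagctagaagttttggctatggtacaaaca
Omd, chr13:49582212-49582461: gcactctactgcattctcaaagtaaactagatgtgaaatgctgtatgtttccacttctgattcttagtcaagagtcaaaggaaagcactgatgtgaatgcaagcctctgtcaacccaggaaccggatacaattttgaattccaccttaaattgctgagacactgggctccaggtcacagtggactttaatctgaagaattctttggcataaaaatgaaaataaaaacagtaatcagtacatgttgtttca
Ogn, chr13:49607765-49608014: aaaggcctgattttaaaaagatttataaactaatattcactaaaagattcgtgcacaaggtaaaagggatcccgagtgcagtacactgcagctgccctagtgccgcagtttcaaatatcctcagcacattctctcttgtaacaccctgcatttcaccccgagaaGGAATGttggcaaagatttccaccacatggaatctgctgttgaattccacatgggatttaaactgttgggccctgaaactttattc
The Ogn stretch held 1 match, on the plus strand, that began 86 bases before the start. The other 3 stretches held none. Over both strands, 12.6% of 32851 mouse promoter stretches of this length held GGAATG, and among the members the Ogn stretch was the only 1 of 9 searched (8 genes, with 2 starts for Podn). The AP-1 letters TGANTCA were in 0 of the 9 and in 6.75% of all stretches. Promoters of Dcn and Lum were not searched. A match is a run of letters and does not show binding.

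OGN, also called mimecan, was higher in every NLS-2SA-YAP1 tumor than in any YAP1-MAML2-v2 tumor. Its level was 4495, 4542 and 4999 CPM in replicates 1, 2 and 3 of NLS-2SA-YAP1. In the YAP1-MAML2-v2 libraries it ran from 247 CPM in replicate 4, with a median of 578 CPM, to 2367 CPM in replicate 2. The 3 NLS-2SA-YAP1 tumors lay close together and above every YAP1-MAML2-v2 tumor, while the YAP1-MAML2-v2 tumors spread 9.58-fold among themselves. A range over 7 libraries tends to be wider than a range over 3. Of all 13707 genes tested, 3.71% were likewise higher in every NLS-2SA-YAP1 library than in any YAP1-MAML2-v2 library. The group levels were 4679 ± 279 CPM (SD, n = 3) and 840 ± 706 CPM (SD, n = 7). The fitted log2 fold change, with construct and region as terms, was 2.55 (SE 0.57). It ran from 2.21 to 2.99 over all alternatives tried. These fits reuse the values that chose OGN, so the SE and the range are descriptions and no test. Muscle markers summed to 1.05, 72 and 250 CPM in these 3 tumors, in the order of their replicate numbers. Meningeal fibroblast markers (9 of 9 in the files) summed to 1688 to 1903 CPM across NLS-2SA-YAP1 and to 681 to 1805 CPM across YAP1-MAML2-v2 tumors, and the part of the fibroblast markers in the OGN level was not tested.

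**Figure D1:**
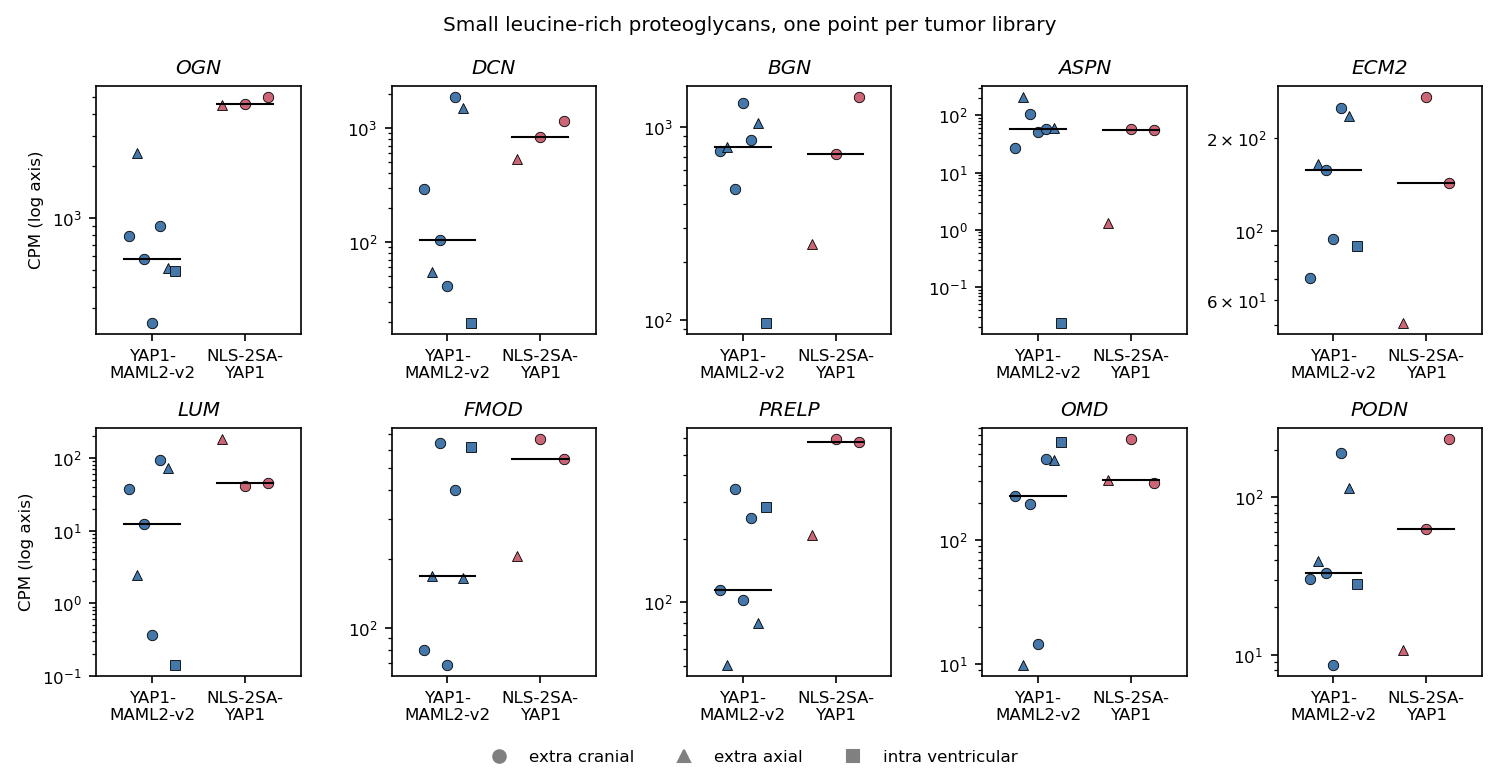
CPM (log axis) of the 10 genes in each library, by construct, with region as the marker shape and the group median as a bar. OGN lies between 4495 and 4999 CPM in the 3 NLS-2SA-YAP1 tumors, above all 7 YAP1-MAML2-v2 tumors. The other 9 genes overlap between the constructs, where 6.73% of all genes do not.

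Levels of different genes were compared as CPM per kilobase of the longest principal transcript. On this scale OGN held 69.8%, 52.8% and 51.1% of the summed level of the 10 genes in NLS-2SA-YAP1 replicates 1, 2 and 3, and DCN came second in each. The YAP1-MAML2-v2 tumors had no common leader. OGN was first in replicates 2 and 3 (61.5% and 23.1% of the sum), BGN in replicates 1 and 4 (31.4% and 70.8%), DCN in replicates 5 and 6 (44.8% and 44.2%) and OMD in replicate 7 (33.3%). With all annotated exons as the length, OGN instead of BGN led in replicate 1 and OGN instead of DCN in replicate 5, and the leader in the other 8 libraries was the same. The summed level of the 10 genes was 3223 ± 659 CPM per kb (SD, n = 3) among NLS-2SA-YAP1 and 1335 ± 605 CPM per kb (SD, n = 7) among YAP1-MAML2-v2 tumors. These shares and sums contain the values that chose OGN and are descriptions only. Without OGN the sums were 1400 ± 573 (SD, n = 3) and 1008 ± 588 CPM per kb (SD, n = 7) in the same order. They overlapped, with 759 to 1862 CPM per kb across NLS-2SA-YAP1 and 578 to 2004 CPM per kb across YAP1-MAML2-v2 tumors.

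**Figure D2:**
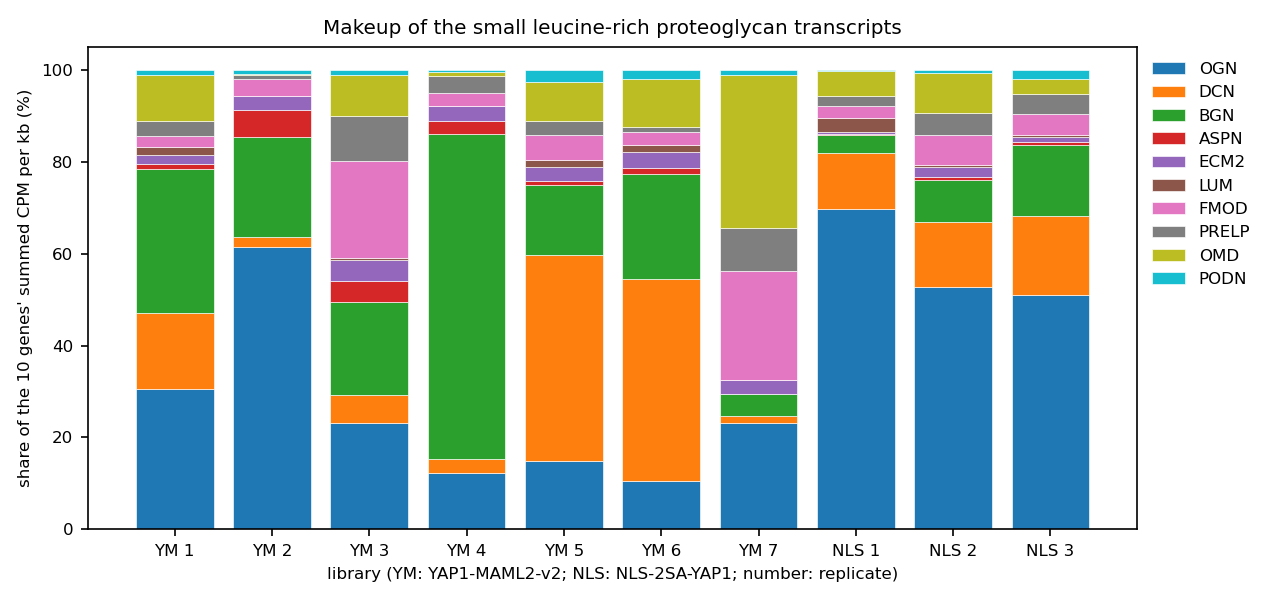
Share of each gene in the summed CPM per kb of the 10 genes (vertical axis, percent) in each library (horizontal axis). OGN makes up 51.1% to 69.8% in the 3 NLS-2SA-YAP1 libraries, while the largest share in YAP1-MAML2-v2 libraries belongs to OGN, BGN, DCN or OMD.

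The first comparison asked whether the rest of the family differed between the constructs. None of the other 9 genes passed edgeR's quasi-likelihood test at an adjusted p of 0.05 over all 13707 genes. Calls were thus 0 of 9, against 0.0146% of all genes. In all 9 the groups overlapped, and only 6.73% of all genes were without overlap in either direction. At an unadjusted p under 0.05 there was 1 of 9, PRELP, against 13.1% of all genes. Fitted values were higher in NLS-2SA-YAP1 for 6 genes and lower for 3, with a median log2 fold change of 0.4 against -0.03 over all genes. DESeq2 called 1 of the 9, PRELP, where it called 5.0% of all genes and 1.63% as higher. limma-voom called 0 of the 9 and 0.693% of all genes, with PRELP just short of the threshold (log2 fold change 1.87, limma-voom adjusted p = 0.0517).

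PRELP, a class II member that anchors basement membranes to collagen, had 209, 593 and 576 CPM in replicates 1, 2 and 3 of NLS-2SA-YAP1. In YAP1-MAML2-v2 libraries it ran from 50.5 to 346 CPM with a median of 114 CPM. NLS-2SA-YAP1 replicates 2 and 3 were the highest of all, and replicate 1 lay inside the YAP1-MAML2-v2 range. The log2 fold change was 1.58 (SE 0.41, 95% interval 0.65 to 2.5) with an edgeR adjusted p of 0.21, and DESeq2 gave an adjusted p of 0.0223. Over all alternatives the log2 fold change ran from 1.27 to 1.87 and the adjusted p from 0.0223 to 0.561. The 3 libraries with the most PRELP, NLS-2SA-YAP1 replicates 2 and 3 and YAP1-MAML2-v2 replicate 3, were also the 3 with muscle transcripts. The next library, YAP1-MAML2-v2 replicate 7 with 284 CPM of PRELP, had a muscle marker sum of 1.21 CPM. With the muscle markers as a covariate the log2 fold change of PRELP was 1.27 (edgeR adjusted p = 0.467). The part of muscle in the PRELP levels was not tested.

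FMOD, which lies beside PRELP on chromosome 1 and regulates collagen fibril assembly, had 206, 666 and 546 CPM in replicates 1, 2 and 3 of NLS-2SA-YAP1. Its YAP1-MAML2-v2 range was 69.1 to 641 CPM with a median of 168 CPM. The 4 highest libraries were NLS-2SA-YAP1 replicate 2, replicates 3 and 7 of YAP1-MAML2-v2 and NLS-2SA-YAP1 replicate 3, so the constructs were interleaved. Between constructs the log2 fold change was 0.8 (SE 0.65, 95% interval -0.66 to 2.26), with an edgeR adjusted p of 0.652. It was 0.2 with the muscle markers as a covariate and 1.76 with limma-voom, and neither passed.

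OMD, named for its place in bone matrix, had 307, 652 and 289 CPM in replicates 1, 2 and 3 of NLS-2SA-YAP1. In YAP1-MAML2-v2 tumors it ran from 9.93 CPM in replicate 2, with a median of 227 CPM, to 620 CPM in replicate 7. Replicates 2 and 4 (9.93 and 14.7 CPM) stood far below the other 8 libraries, the lowest of which was replicate 3 with 196 CPM. OGN, only a short distance away on chromosome 13, had its highest YAP1-MAML2-v2 level in that same replicate 2 and its lowest in replicate 4. The log2 fold change of OMD between constructs was 0.88 (SE 1.05, 95% interval -1.5 to 3.25; edgeR adjusted p = 0.779), and ran from 0.42 without NLS-2SA-YAP1 replicate 2 to 2.02 without YAP1-MAML2-v2 replicate 6.

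DCN, which binds collagen and TGF-beta, and LUM, a collagen spacer abundant in the cornea, varied widely between YAP1-MAML2-v2 tumors. DCN was 533, 836 and 1144 CPM in replicates 1, 2 and 3 of NLS-2SA-YAP1. In YAP1-MAML2-v2 tumors it ran from 19.6 CPM in replicate 7, with a median of 104 CPM, to 1856 CPM in replicate 5. LUM was 181, 40.9 and 44.6 CPM in the 3 NLS-2SA-YAP1 tumors and ran from 0.142 to 94.7 CPM, with a median of 12.4 CPM, in the YAP1-MAML2-v2 tumors. The NLS-2SA-YAP1 tumors thus stayed within 2.15-fold of each other for DCN, where the YAP1-MAML2-v2 tumors spread 94.6-fold. A range over 7 libraries tends to be wider than a range over 3, and the 7 include the intra ventricular replicate 7. These ranges therefore do not show that the NLS-2SA-YAP1 tumors are more uniform. The log2 fold changes were 0.4 for DCN (95% interval -2.34 to 3.14; edgeR adjusted p = 0.934) and 1 for LUM (95% interval -2.06 to 4.06; edgeR adjusted p = 0.81), intervals that leave room for large differences either way. Single libraries moved both values. DCN was 1.9 without YAP1-MAML2-v2 replicate 5, 1.44 without replicate 6 and as low as 0.09 without replicate 4, and LUM was 1.69 without replicate 5 and 0.22 without NLS-2SA-YAP1 replicate 1.

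Among YAP1-MAML2-v2 libraries the standard deviation of log2 CPM was 2.56 for DCN, 3.59 for LUM, 3.8 for ASPN and 2.45 for OMD. The median over the 5976 genes whose log2 CPM averaged 5 or more was 0.61, a set to which LUM and ASPN do not belong. ECM2 (0.71) and OGN (1) had the smallest spread of the 10.

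BGN, a class I proteoglycan that also signals through Toll-like receptors, had 248, 727 and 1434 CPM in replicates 1, 2 and 3 of NLS-2SA-YAP1. In YAP1-MAML2-v2 tumors its range was 96.9 to 1342 CPM, with a median of 790 CPM. The lowest values were those of the intra ventricular tumor and of NLS-2SA-YAP1 replicate 1. For BGN the log2 fold change was -0.27 (SE 0.54, 95% interval -1.48 to 0.95; edgeR adjusted p = 0.894), and its sign turned in extra cranial libraries alone (0.32).

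ASPN, which binds collagen and TGF-beta, was close to missing from 2 tumors. Its level was 1.32, 57 and 56.3 CPM in replicates 1, 2 and 3 of NLS-2SA-YAP1. YAP1-MAML2-v2 replicate 7 had a deposited value of 1, and the other 6 YAP1-MAML2-v2 tumors had 27 to 207 CPM. ECM2, its neighbour on chromosome 13, was at 50.7 and 89.7 CPM in those same 2 tumors. The log2 fold change between constructs was -1.05 for ASPN (SE 1.11, 95% interval -3.56 to 1.46; edgeR adjusted p = 0.746) and -0.12 for ECM2 (SE 0.59, 95% interval -1.43 to 1.2; edgeR adjusted p = 0.963). The ASPN value rested on NLS-2SA-YAP1 replicate 1, without which it was -0.09, and it was -3.49 with the muscle markers as a covariate (edgeR adjusted p = 0.974 and 0.503).

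ECM2, a matrix protein with leucine-rich repeats, had 50.7, 270 and 143 CPM in replicates 1, 2 and 3 of NLS-2SA-YAP1 and 70.9 to 249 CPM in the YAP1-MAML2-v2 tumors, with a median of 157 CPM. PODN, a class V protein known to restrain smooth muscle cell growth, had 10.7, 63.1 and 234 CPM in replicates 1, 2 and 3 of NLS-2SA-YAP1. Its YAP1-MAML2-v2 range was 8.62 to 191 CPM with a median of 33 CPM. NLS-2SA-YAP1 replicate 1, the extra axial tumor, was the lowest of its group for PODN, ECM2, BGN, ASPN, DCN, FMOD and PRELP and the highest for LUM. The log2 fold change of PODN was 0.33 (SE 1.14, 95% interval -2.26 to 2.92; edgeR adjusted p = 0.944). Podn overlaps Scp2 on the same strand, and the sources used here do not say how reads of overlapping genes were assigned.

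**Figure D3:**
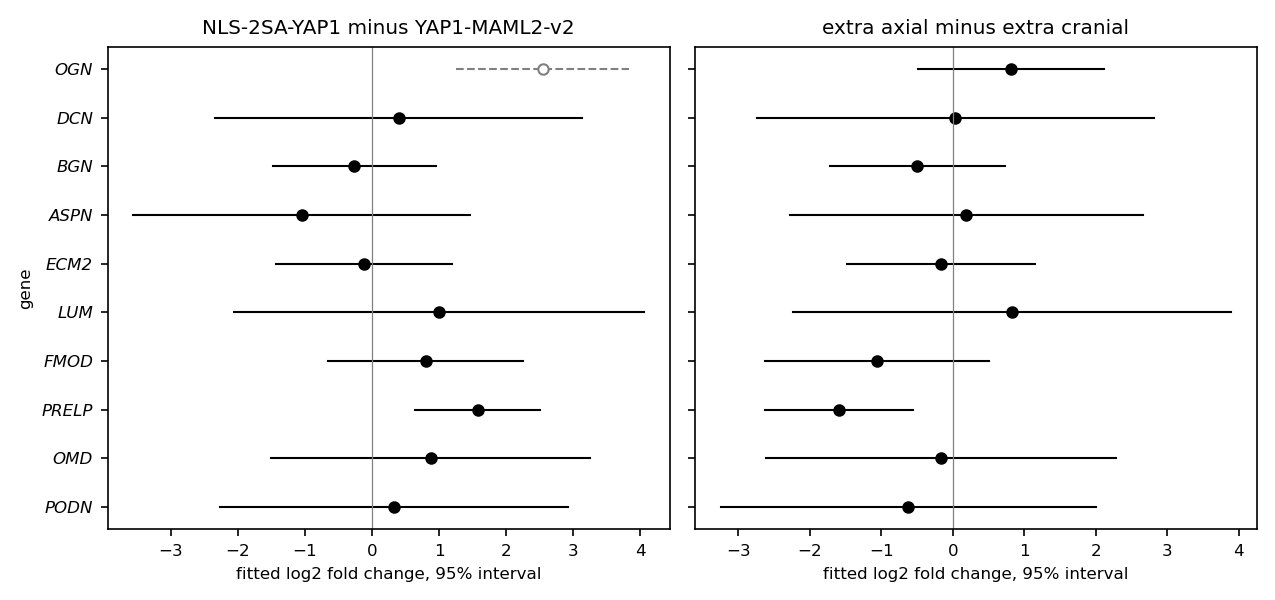
Fitted log2 fold change (horizontal axis) with its 95% interval for the 10 genes (vertical axis), between constructs on the left and between regions on the right. OGN between constructs is drawn open and dashed because this difference chose it, so its interval is no test. Of the others, the interval of PRELP alone excludes 0, on the right side of 0 between constructs and on the left between regions, and its adjusted p-values are 0.21 and 1.

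The second comparison asked whether extra axial (n = 3) and extra cranial (n = 6) tumors differed. None of the 10 genes passed edgeR's test (0 of 10, against 0.0% of all 13707 genes), and the regions overlapped for each of the 10, where 0.89% of all genes did not overlap. DESeq2 also called 0 of the 10 (0.226% of all genes). Of the members 4 were fitted higher and 6 lower in extra axial tumors, with a median log2 fold change of -0.17 against -0.01 over all genes.

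PRELP had the largest log2 fold change, -1.59 (SE 0.47, 95% interval -2.63 to -0.55), and was the 1 member of 10 with an unadjusted p under 0.05, against 3.01% of all genes. Its level was 50.5, 79.5 and 209 CPM in the extra axial libraries, which are replicates 2 and 6 of YAP1-MAML2-v2 and replicate 1 of NLS-2SA-YAP1. The extra cranial libraries ran from 103 to 593 CPM with a median of 299 CPM. Within each construct every extra axial tumor lay below every extra cranial one, with 2 against 4 and 1 against 2 libraries. The share of all genes with such an order was not counted, and over both constructs together the regions overlapped. The edgeR adjusted p was 1, and over all alternatives it ran from 0.109 to 1 with log2 fold changes of -1.75 to -1.25. The 3 libraries with muscle transcripts are all extra cranial, and the part of muscle in the PRELP levels was not tested. With the muscle markers as a covariate the log2 fold change of PRELP was -1.25 (edgeR adjusted p = 1). FMOD followed with -1.06 (SE 0.70; edgeR adjusted p = 1), which was -0.36 with the muscle covariate, -0.33 with limma-voom and -0.59 without YAP1-MAML2-v2 replicate 3. Its extra axial levels were 165, 168 and 206 CPM, and the extra cranial ones ran from 69.1 to 666 CPM with a median of 473 CPM.

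OGN had 510, 2367 and 4495 CPM in the extra axial tumors and 247 to 4999 CPM in the extra cranial ones, with a median of 842 CPM. The log2 fold change was 0.82 (SE 0.58, 95% interval -0.48 to 2.11; edgeR adjusted p = 1). It rested on YAP1-MAML2-v2 replicate 2, without which it was -0.21 (edgeR adjusted p = 1). The log2 fold changes of the remaining 7 members lay between -0.62 for PODN and 0.83 for LUM. For DCN, BGN, ASPN, OMD, PODN and ECM2 the sign of the region difference turned when single libraries were left out.

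The intra ventricular tumor, YAP1-MAML2-v2 replicate 7, is a single library and allows no test. It had the lowest DCN (19.6 CPM), LUM (0.142 CPM), BGN (96.9 CPM) and ASPN (a deposited value of 1) of all 10 libraries. In the same tumor FMOD (616 CPM), PRELP (284 CPM) and OMD (620 CPM) were among the higher values, each among the 4 highest of the 10. DCN, BGN, ASPN and LUM were thus low where the other 3 class II genes were not, and ECM2, at 89.7 CPM, lay inside the range of the other libraries. Macrophage markers (6 of 7 in the files) summed to 1811 CPM there and to 278 to 936 CPM elsewhere, and cartilage markers (6 of 6) to 565 CPM against 0.964 to 383 CPM. Neuron markers (4 of 4) summed to 85.3 CPM there and to at most 5.67 CPM elsewhere. Their part in these levels was not tested.

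**Figure D4:**
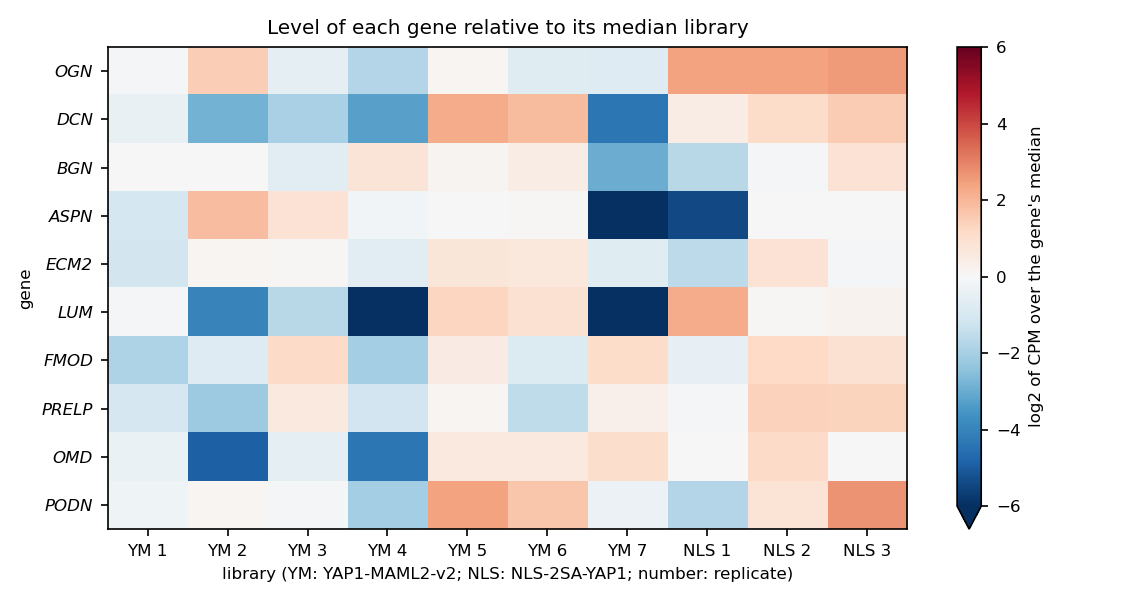
Level of each gene (rows) in each library (columns) as log2 of its CPM over the gene's median library, with values below -6 drawn in the darkest blue. DCN and LUM share their low libraries (YAP1-MAML2-v2 replicates 2, 4 and 7), OMD is low in replicates 2 and 4, and ASPN in replicate 7 and in NLS-2SA-YAP1 replicate 1.

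Whether the construct difference depended on region was tested with an interaction term over the 9 libraries outside the ventricle. None of the 9 genes other than OGN passed edgeR's test (0 of 9, against 0.00741% of all 13487 genes), and 3 of 9 had an unadjusted p under 0.05, against 7.14% of all genes. These were ASPN (edgeR adjusted p = 0.594), ECM2 (0.671) and BGN (0.69). DESeq2 called 1 of 9, ASPN, with an adjusted p of 1.66e-05, where it called 1.51% of all genes. The ASPN term, -6.57 on the log2 scale (SE 1.31), rests on the 1.32 CPM of NLS-2SA-YAP1 replicate 1, the only extra axial tumor of its construct.

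The third question was whether members that lie together in the genome rose and fell together. Correlations of log2 CPM were taken over the 7 YAP1-MAML2-v2 libraries, so that the difference between constructs did not enter, for 5 pairs with Benjamini-Hochberg adjustment over the 5. DCN and LUM, 2 genes in a 93.1 kb stretch of chromosome 10 (97479609 to 97572703), had a Pearson r of 0.94 (exact permutation p = 0.00437, adjusted 0.0218). Their Spearman rho was 1 (exact permutation p = 0.000397, adjusted 0.00198), so the 7 tumors fell in the same order for both. Without the 2 libraries of extreme DCN, replicates 5 and 6, r was 0.96. The adjusted exact permutation p of r was 0.0625 without replicate 3 and 0.0694 without replicate 7, with r at 0.96 and 0.91. Pairs that lie apart in the genome were about as alike in several cases, among them BGN and ASPN (r = 0.88), DCN and PODN (0.83), PODN and ECM2 (0.79) and LUM and PODN (0.77). Over all pairs of members, the median r was 0.32 for the 8 that share a locus (-0.49 to 0.94) and 0.33 for the other 37 (-0.68 to 0.88).

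FMOD and PRELP, in a 138 kb stretch of chromosome 1 (133910304 to 134048277), had r = 0.76 (exact permutation p = 0.0623, adjusted 0.156) and rho = 0.68 (exact permutation p = 0.11, adjusted 0.274). Without replicates 3 and 7, r was 0.43. Over all 10 libraries, each centred on its construct's mean, r was 0.8 (permutation p adjusted 0.0229).

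OGN did not follow its neighbours in a way this number of tumors could call. Its r was -0.21 with OMD (exact permutation p = 0.601, adjusted 0.601), 0.32 with ASPN (0.324, adjusted 0.54) and 0.31 with ECM2 (0.527, adjusted 0.601), all by exact permutation. The rho values were -0.21, 0.54 and 0.39, with exact permutation p-values of 0.662, 0.236 and 0.396, adjusted 0.662, 0.393 and 0.495. Without replicates 2 and 4, the extremes of OGN, r was -0.27, 0.45 and 0.08. The value with OMD turned to 0.76 without replicate 2 alone and was -0.91 without replicate 4 alone. All 4 genes lie inside Cenpp, which is read from the opposite strand, and Cenpp exons share 7 counted bases with ASPN exons and 0 with those of the other 3. The other 3 pairs of the chromosome 13 run had r = -0.49 (ASPN and OMD), 0.47 (ASPN and ECM2) and 0.15 (OMD and ECM2). CENPP itself was at 4.19 to 33 CPM.

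**Figure D5:**
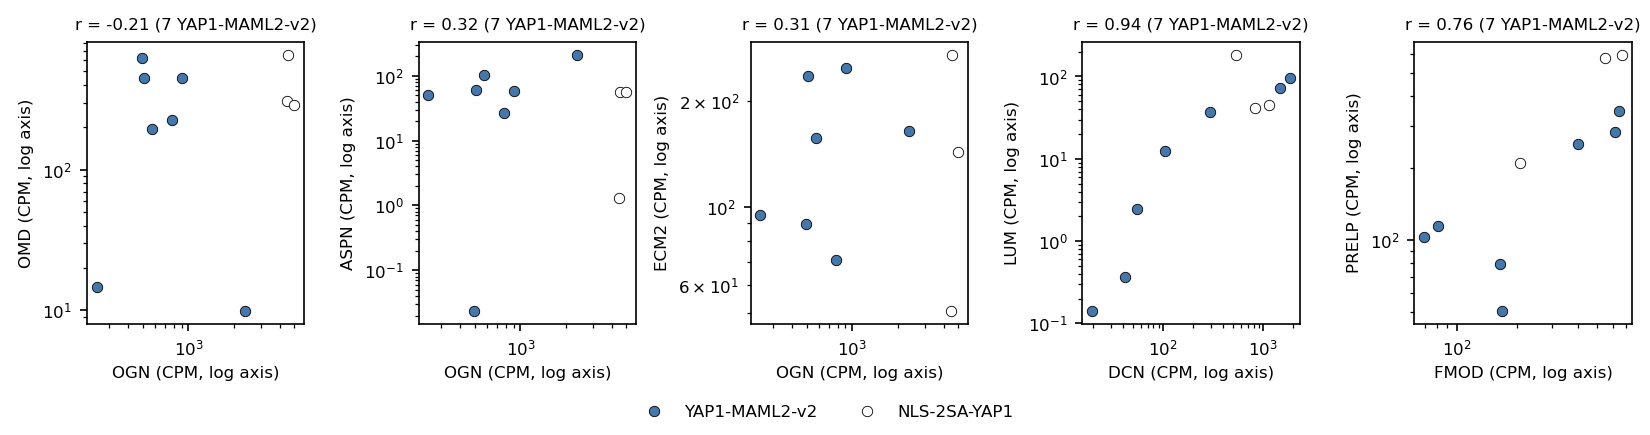
CPM of both genes of each neighbouring pair (log axes), with YAP1-MAML2-v2 libraries filled and NLS-2SA-YAP1 libraries open; r is over the 7 filled points of log2 CPM. DCN and LUM have r = 0.94 and OGN has r = -0.21, 0.32 and 0.31 with OMD, ASPN and ECM2, beside a median r of 0.33 for the 37 pairs that share no locus.

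The genes most like OGN over the 10 libraries, by Pearson r of log2 CPM among 5958 well expressed genes, were MRPL51 (0.938), a mitochondrial ribosomal protein, CEP170B (0.935), TMEM129 (0.934), ANKS6 (0.926) and MAP2K3 (0.908), a kinase that activates p38. These r values include the difference between constructs that chose OGN. Over the 7 YAP1-MAML2-v2 libraries alone they were RECQL (0.99), a DNA helicase, LZTR1 (0.982), NAPA (0.965), which serves membrane fusion, CEP170B (0.9) and TNPO3 (0.89), a nuclear import receptor. No ranked family member was near the top of either list: DCN ranked 864 over 10 libraries (r = 0.452) and PODN 789 over 7 (r = 0.42). LUM and ASPN, with a mean log2 CPM of 3.77 and 4.5, lay below the required mean of 5 and were not ranked. These are descriptions, since the best of 5958 r values over 7 or 10 libraries is bound to be high.

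The remaining family members were scarce, apart from TSKU. KERA, the corneal keratocan, had 90 as its highest deposited value, in NLS-2SA-YAP1 replicate 3, and was listed at 0 in the other 9 libraries. EPYC and OPTC, of class III like OGN, reached 1.29 and 1.3 CPM at most. TSKU, a secreted inhibitor of BMP and WNT signaling, had 72.4 ± 26.7 CPM (SD, n = 3) among NLS-2SA-YAP1 and 42.6 ± 28.5 CPM (SD, n = 7) among YAP1-MAML2-v2 tumors (edgeR adjusted p = 0.595). Of the 8 genes in this list 5 were tested and 0 passed in either comparison. CHADL, a collagen-binding chondroadherin-like protein, had 0.0683 to 0.263 CPM against 0.627 to 4.19 CPM (log2 fold change -3.76, SE 1.01, edgeR adjusted p = 0.224).

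Genes that make, cut or bind these proteoglycans gave no edgeR calls in either comparison: 0 of 10 fibrillar and associated collagens, 0 of 7 proteases, 0 of 15 chondroitin and dermatan sulfate enzymes, 0 of 6 keratan sulfate enzymes and 0 of 10 ligands and receptors. Between constructs the median log2 fold changes of these lists were -0.42, -0.77, -0.16, 0.01 and -0.19, against -0.03 for all genes. At an unadjusted p under 0.05 there were 0, 4, 2, 2 and 3 genes in that order, against 13.1% of all genes. With the 5 tested genes of the list of remaining family members included, DESeq2 called 9 genes between constructs. They were ADAMTS5, B3GNT2, B4GALT4, CHADL, CHPF, MMP2, PCOLCE, TGFB2 and TLL1. This is a larger share of the listed genes than the 5.0% that DESeq2 called of all genes. The lists share the same libraries, so the count is no test of them.

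Of the collagens, COL1A1, a chain of type I collagen, had 5671 ± 3675 CPM (SD, n = 3) among NLS-2SA-YAP1 and 2090 ± 2109 CPM (SD, n = 7) among YAP1-MAML2-v2 tumors (edgeR adjusted p = 0.6). COL5A1, which starts type I fibrils, had 491 ± 196 against 233 ± 174 CPM in the same order (edgeR adjusted p = 0.569). Of the proteases, TLL1, a relative of the BMP1 enzyme that trims proteoglycan propeptides, had 0.307 to 0.427 CPM across NLS-2SA-YAP1 and 0.449 to 68.3 CPM across YAP1-MAML2-v2 tumors. Its groups did not overlap, as in 3.03% of all genes in this direction and 6.73% in either, and the edgeR adjusted p was 0.243. ADAMTS5, a proteoglycan-cleaving enzyme, had 0.0239 to 10 CPM against 12.8 to 113 CPM, also without overlap (edgeR adjusted p = 0.345).

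Of the enzymes, CHPF, which lengthens chondroitin chains, had 281 ± 148 CPM (SD, n = 3) among NLS-2SA-YAP1 and 102 ± 49.4 CPM (SD, n = 7) among YAP1-MAML2-v2 tumors (edgeR adjusted p = 0.228, with a log2 fold change of 1.55 and SE of 0.44). XYLT1, which starts these chains on the core protein, had 11.2 ± 6.6 against 44.1 ± 27.6 CPM (log2 fold change -1.63, edgeR adjusted p = 0.368). In keratan sulfate synthesis, B4GALT4 had 193 ± 48 against 91.6 ± 50.2 CPM (log2 fold change 1.36, edgeR adjusted p = 0.173) and B3GNT2 19.2 ± 13.1 against 57.2 ± 32.8 CPM (log2 fold change -1.93, edgeR adjusted p = 0.194). Enzymes of either chain type thus had values on both sides.

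TGFB2, a ligand that decorin and its relatives bind, had 42.5 ± 12 CPM (SD, n = 3) among NLS-2SA-YAP1 and 142 ± 107 CPM (SD, n = 7) among YAP1-MAML2-v2 tumors (log2 fold change -1.91, edgeR adjusted p = 0.25). MET, a receptor that decorin binds, had 172 to 533 CPM across NLS-2SA-YAP1 and 5.96 to 356 CPM across YAP1-MAML2-v2 tumors (edgeR adjusted p = 0.471). Between regions, 13 of 15 chondroitin and dermatan sulfate enzymes and 7 of 7 proteases were fitted lower in extra axial tumors. Their median log2 fold changes were -0.56 and -0.37, against -0.01 for all genes, of which 49.4% were fitted higher. In the other lists 7 of 10 collagens, 4 of 6 keratan sulfate enzymes, 6 of 10 ligands and receptors and 3 of 5 other family members were lower. Genes of a list share the same libraries, so these counts are no test. None of these genes passed edgeR's test. DSE, the epimerase that makes dermatan sulfate, had 119 ± 87.4 CPM (SD, n = 3) in extra axial and 217 ± 111 CPM (SD, n = 6) in extra cranial tumors (edgeR adjusted p = 1), and BMP1 67.3 ± 16.2 against 125 ± 89.4 CPM (edgeR adjusted p = 1).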

How the data were processed

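RNA of 10 frozen mouse tumors was sequenced as a stranded mRNA library, per the labels' protocols. The deposited values are whole numbers per gene, made by the authors with HTSeq on mm10 per the submitters' processing notes, and were used as estimated counts because of their excess of genes at 1. The sources used here give no versions, no aligner or annotation, no strand setting and not the step that made the symbols human-style. Of 16895 symbols, 15475 (91.6%) matched GENCODE M21 mouse symbols ignoring case. Without known depth, no counting intervals are given.

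Genes were kept with filterByExpr at a minimum count of 10 (13707 genes) and scaled by TMM. They were tested with edgeR 4.0.16 (R 4.3.3, quasi-likelihood, robust) with construct and region as terms, where the intra ventricular tumor had its own region. P-values were two-sided and adjusted by Benjamini-Hochberg over all genes, with a threshold of 0.05. Fold changes are NLS-2SA-YAP1 over YAP1-MAML2-v2 and extra axial over extra cranial, and 95% intervals are from the fit. log2 CPM used a prior count of 2. The scripts were tested on simulated data. DESeq2 1.42.0, limma 3.58.1 (voom with quality weights), RLE scaling, no filter, other terms, subsets, a muscle covariate and leaving out each library were alternatives. The transcript length was chosen after seeing the data, as was its alternative. Motif letters were likewise searched only as a description.

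The members and lists were chosen with earlier results of these data known. Named genes are the members, the 2 of each partner list with the largest absolute log2 fold change in a comparison (none passed), of which a part is printed, and the 5 most like OGN. YAP1, FOXC1, KERA and EPYC were added as checks of the labels or as relatives.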

Additional observations from a re-analysis of the deposited data

Results flagged for a closer look

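In 3 of 20 groups of 4 to 10 libraries checked, 1 library stood further from the rest than Dixon's 95% limit allows. Chance gives about 1 in 20 for independent checks. These checks are not independent, because the sets of libraries overlap and some of the genes are correlated. BGN (96.9 CPM) in YAP1-MAML2-v2 replicate 7, the intra ventricular tumor, lay below the other 6 tumors of its construct, with a gap of 0.609 of the group's whole log2 range. ASPN lay below them in the same library, with a gap of 0.742 of the range and a deposited value of 1. OMD (14.7 CPM) in YAP1-MAML2-v2 replicate 4 lay below the other 5 extra cranial tumors, with a gap of 0.682 of the range. That library also had the highest summed level of bone markers (848 CPM, against 24.4 CPM in the library with the lowest). Of that sum 795 CPM was 1 gene, ALPL, and 2 of the 6 bone markers were at 0 or 1 there. Their part in the OMD level was not tested.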

How the results depend on the processing

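Of 503 recomputed values, 451 kept their direction and side of the threshold, or lay within 1.5 times of the count. With DESeq2, 1 member was called between constructs (PRELP), 1 by construct and region together (ASPN) and 9 partner genes between constructs. limma-voom called 1 partner gene, MMP2. Neighbouring pairs past the threshold numbered 2 with all 10 libraries centred on their group means, and 0 to 1 with single libraries left out. The causes of these shifts were not tested.

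No tested member passed edgeR's main test in any comparison, so every difference whose sign turned was one that had not been called. Between constructs, BGN was 0.06 without a region term and 0.32 in extra cranial libraries, PODN was -1.17 with the muscle covariate, and ECM2 was 0.43 with limma-voom, 0.03 without a region term and 0.51 in extra cranial libraries. Between regions, the muscle covariate gave -0.12 for DCN, -0.02 for LUM and 0.06 for ECM2. YAP1-MAML2-v2 libraries alone gave 0.1 for BGN, 0.19 for PODN and 0.45 for ECM2. limma-voom gave -0.72 for ASPN and 0.02 for ECM2, and DCN was -0.05 without a construct term.

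With single libraries left out, construct log2 fold changes ran from -0.88 to 0.32 for BGN, -1.01 to 1.54 for PODN, -0.74 to 0.52 for ECM2, 0.09 to 1.9 for DCN, 0.22 to 1.69 for LUM, 0.56 to 1.27 for FMOD, -1.47 to -0.09 for ASPN and 0.42 to 2.02 for OMD. Region values ran from -0.21 to 1.18 for OGN, -1.99 to 1.53 for DCN, -0.86 to 0.07 for BGN, -1.35 to 1.15 for ASPN, -2.11 to 0.35 for OMD, -1.77 to 0.59 for PODN and -0.61 to 0.45 for ECM2. The correlation of OGN with OMD ran from -0.91 to 0.76. OGN between constructs, the difference that chose it, ran from 2.32 to 2.99, which is a description only. The interaction could not be fitted without NLS-2SA-YAP1 replicate 1.

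Replicate numbers 1 to 3 occur in both constructs but are not stated to pair tumors. Over 13707 genes the deviations of same-numbered libraries correlated at 0.17, 0.34 and -0.07 for numbers 1, 2 and 3. Numbers 1 and 2 correlated best with their own number, and number 3 did not. With the replicate block, 0 members were called, as without it. Construct log2 fold changes under the block were 2.21 for OGN, 1.66 for PRELP (edgeR adjusted p = 0.437) and 0.03 for ECM2, whose sign turned. The block moved DCN from 0.4 to 2.81, LUM from 1 to 2.7, ASPN from -1.05 to -2.29, OMD from 0.88 to 1.88, PODN from 0.33 to 0.68 and BGN from -0.27 to -0.06. Depth is unknown, which limits what can be said of values near 0 such as those of LUM and ASPN.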
